A study of Homo sapiens with 24 samples.

Results

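CFDP1, SMIM15, TDRD7 and DSC2 are 4 of the 13136 genes tested (58676 gene rows in all) in HepG2 cells, a human hepatoma line in wide use. They were selected because their transcripts were higher than in control cells after knockdown of any of the 3 IGF2BP genes, so their differences from control cells are given as a description, without a test. The groups were siControl (AllStars non-targeting siRNA, from Qiagen) and siIGF2BP1, siIGF2BP2 and siIGF2BP3 (siRNAs from Dharmacon). The supplier of the siRNA thus cannot be told apart from the difference between control and knockdown. Each group was of HepG2 cells that were transfected and replated after 6 h. Actinomycin D was added 48 h later to 5 µg/ml for 0, 3 or 6 h, and each of the 12 groups has 2 libraries. All libraries carry ERCC synthetic RNA added in proportion to total RNA, a scale that does not account for the number of cells or the yield of RNA.

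IGF2BP1, IGF2BP2 and IGF2BP3 encode related cytoplasmic proteins that bind mRNA through RRM and KH domains and are best known for protecting bound transcripts from decay. IGF2BP1 and IGF2BP3 are oncofetal, abundant in the embryo and again in many liver cancers, while IGF2BP2 is more widely expressed. Actinomycin D blocks RNA synthesis, so the level that remains after its addition reports how fast a transcript is lost.

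The 4 genes lie on 4 chromosomes. CFDP1 (ENSG00000153774.8, chromosome 16, 75293698 to 75433503, minus strand, hg38) encodes a chromatin protein of the craniofacial development protein family that has been linked to the SRCAP remodelling complex. SMIM15 (ENSG00000188725.7, chromosome 5, 61157704 to 61162468, minus strand) encodes a small integral membrane protein. TDRD7 (ENSG00000196116.7, chromosome 9, 97412096 to 97496125, plus strand) encodes a tudor domain protein of RNA granules that is needed in the lens and is induced by interferon. DSC2 (ENSG00000134755.15, chromosome 18, 31058840 to 31102522, minus strand) encodes desmocollin 2, a cadherin of desmosomes. All 4 are protein coding genes.

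The 3′ untranslated regions, where RNA-binding proteins and small RNAs often act, differ widely among the 4 transcripts. In the canonical GENCODE transcripts they are 242 bases long in CFDP1, 242 in TDRD7, 2243 in SMIM15 and 9175 in DSC2, beside a median of 1324 over 11361 tested genes. Only 1.36% of those genes have a 3′ untranslated region as long as that of DSC2. The word ATTACAA, which stood out in earlier results of these data and is therefore not independent evidence, occurs 2 times in SMIM15, 4 times in DSC2 and 0 times in CFDP1 and TDRD7. Of the 11361 genes 13.4% hold it at all, 2.62% hold at least 2 copies and 0.185% at least 4, and a longer region has more room for any word. The 6 windows that hold it are shown, as 29 transcript bases each read from hg38 with the word in capitals, because they separate SMIM15 and DSC2 from the other pair.
SMIM15, chr5:61159084-61159112, minus strand: gtaattcgccgATTACAAagacaccattt
SMIM15, chr5:61158661-61158689, minus strand: atgaattttaaATTACAAaaaattgtcta
DSC2, chr18:31067945-31067973, minus strand: ttttaaaaaaaATTACAAaccaagaattt
DSC2, chr18:31067464-31067492, minus strand: aggcattgactATTACAAtttcattttgg
DSC2, chr18:31066739-31066767, minus strand: aatattttaagATTACAAttttaacaaat
DSC2, chr18:31063782-31063810, minus strand: aaattgaaaatATTACAAatcaaaacagc

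Other short words had the most copies in DSC2, the longest of the 4 regions, but not the most per length: ATTTA was densest in TDRD7, and GGAC and CATT in SMIM15. ATTTA, the core of AU-rich elements, occurs 0 times in CFDP1, 9 in SMIM15, 1 in TDRD7 and 23 in DSC2, and 72.7% of genes hold it. GGAC, a core of the m6A consensus, occurs 0, 6, 0 and 16 times in the same order, and 84.3% of genes hold it. CATT, part of a described IGF2BP binding word, occurs 2, 23, 0 and 62 times, and 89.1% hold it. TGTANATA, the Pumilio word, occurs 2 times in DSC2 and 0 times in the other members, and 29.8% of genes hold it. No word searched occurs in all 4 regions.

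Promoter windows of RefSeq (GRCh38.p14), from 250 bases before to 50 after the annotated start, were searched on both strands for 6 motifs. The GC box GGGCGG occurs 2 times in CFDP1, 4 in SMIM15, 6 in TDRD7, and 1 and 2 times in the 2 annotated promoters of DSC2, and 45.0% of 35116 promoters hold it. The ETS word CCGGAAG occurs 1 time in CFDP1 and 1 time in SMIM15 and in none of the TDRD7 and DSC2 windows, and 10.3% of promoters hold it. The TATA box (TATAAA, in 11.5% of promoters), the CCAAT box (CCAAT, in 34.6%), the AP-1 word (TGANTCA, in 7.71%) and a core of the interferon-stimulated response element (in 3.57%) have 0 matches in each of the 5 windows. The TDRD7 window ends, 50 bases after the start, inside a partial match to the interferon-stimulated response core. Its count of 0 therefore cannot show whether TDRD7 holds that core across the window edge, and bases beyond the edge were not searched. The 2 promoters with an ETS word are shown with GC boxes and ETS words in capitals on either strand, since they are the windows in which 2 members share a less common word.
CFDP1 promoter, chr16:75433454-75433753, minus strand: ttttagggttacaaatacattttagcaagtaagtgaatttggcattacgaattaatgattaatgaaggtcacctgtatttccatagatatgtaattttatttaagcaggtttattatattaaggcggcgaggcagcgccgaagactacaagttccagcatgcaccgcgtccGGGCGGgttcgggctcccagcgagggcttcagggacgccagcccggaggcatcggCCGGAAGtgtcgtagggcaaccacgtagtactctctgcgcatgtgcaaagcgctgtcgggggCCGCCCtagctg
SMIM15 promoter, chr5:61162419-61162718, minus strand: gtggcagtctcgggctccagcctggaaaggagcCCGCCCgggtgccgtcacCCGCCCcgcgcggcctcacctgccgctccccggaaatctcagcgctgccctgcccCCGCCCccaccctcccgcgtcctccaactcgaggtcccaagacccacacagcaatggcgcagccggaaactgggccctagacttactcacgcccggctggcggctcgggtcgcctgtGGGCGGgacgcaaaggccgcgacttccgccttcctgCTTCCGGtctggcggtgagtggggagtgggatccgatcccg

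Gene reads per library ranged from 31843248 to 74252042 and ERCC reads from 50889 to 119088. The targeted transcripts were left at 21.1% (IGF2BP1), 26.2% (IGF2BP2) and 35.5% (IGF2BP3) of their siControl level at 0 h in their own knockdown. The 11 hepatocyte and hepatoma markers checked, among them ALB and AFP, were above 38 CPM (gene reads scaled to a common total) in every library. Of 12 markers of other cell types, 10 stayed below 1 CPM throughout, PECAM1 reached 1.37 and ACTA2 lay between 29.1 and 42.6. The 4 members had between 148 reads (SMIM15) and 8285 reads (DSC2) per library, so counting error was small beside their differences from siControl. This does not extend to the smaller differences between knockdowns. The study describes its replicates as independent, while the labels do not tie the 2 libraries of a group to separate cultures, so p-values measure the spread between these libraries. Each transfected plate was split into 3 plates before the drug was added, so libraries of a condition can share a transfection.

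CFDP1 differed most from siControl at 0 h. Its level, in CPM, was 27.9 and 30.0 in the siControl libraries at 0 h. It was 79.8 and 73.0 in siIGF2BP1, 76.1 and 78.0 in siIGF2BP2, and 76.1 and 75.4 with siIGF2BP3. All 6 knockdown libraries were above both siControl libraries, and the 3 knockdowns overlapped one another. The choice of the members favours such a separation, here and for the other members below. It is not evidence, and its share over all genes was not counted. After 6 h of actinomycin D the siControl libraries were both at 33.7, and the knockdown libraries ran from 107 to 120 with a median of 115. Averaged over the 3 knockdowns, CFDP1 was 2.65-fold higher than in siControl at 0 h, 2.98-fold at 3 h and 3.36-fold at 6 h on the TMM scale, which sets the libraries by the bulk of genes.

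SMIM15 stood second at 0 h, and differed more than CFDP1 at 3 and 6 h. It was at 16.8 and 18.0 CPM in siControl at 0 h, and at 35.7 and 37.4 in siIGF2BP1, 37.5 and 36.3 in siIGF2BP2 and 37.0 and 41.3 with siIGF2BP3. At 3 h siControl held 6.46 and 7.25 CPM while the 6 knockdown libraries held 22.2 to 24.1. At 6 h siControl held 3.31 and 2.77 CPM while the knockdowns held 10.2 to 12.8. The SMIM15 groups never overlapped with siControl, and the knockdown libraries at 3 h were above the siControl libraries at 0 h. The mean difference was 2.17-fold at 0 h, 3.27-fold at 3 h and 3.72-fold at 6 h (TMM scale).

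TDRD7 had the smallest difference from siControl at 0 h, and its difference widened most over time. Its siControl libraries were at 14.7 and 13.3 CPM at 0 h, beside 24.2 and 24.1 in siIGF2BP1, 22.1 and 20.7 in siIGF2BP2, and 17.9 and 21.8 with siIGF2BP3. At 6 h siControl was at 3.23 and 4.45 CPM, siIGF2BP1 at 16.04 and 14.4, siIGF2BP2 at 13.2 and 10.9, and siIGF2BP3 at 11.3 and 12.9. The lowest knockdown library at 6 h was thus still above the higher siControl library, and siIGF2BP1 was the highest knockdown at each time. The mean difference was 1.56-fold at 0 h, 2.26-fold at 3 h and 3.35-fold at 6 h (TMM scale).

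DSC2 differed from siControl by a similar amount throughout on the TMM scale. The siControl libraries held 52.3 and 48.6 CPM at 0 h, beside 112 and 111 in siIGF2BP1, 97.7 and 96.4 in siIGF2BP2 and 95.9 and 97.1 with siIGF2BP3. At 6 h siControl held 37.2 and 42.5 CPM, siIGF2BP1 104 and 101, siIGF2BP2 90.06 and 90.02, and siIGF2BP3 80.4 and 81.3. The siIGF2BP1 libraries were above all other DSC2 libraries of the same time, and the share of all genes with such an order was not counted. The mean difference was 2.03-fold at 0 h, 2.23-fold at 3 h and 2.25-fold at 6 h (TMM scale). On the ERCC scale it widened from 2.09-fold at 0 h to 2.36-fold at 3 h and 2.67-fold at 6 h.

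**Figure D1:**
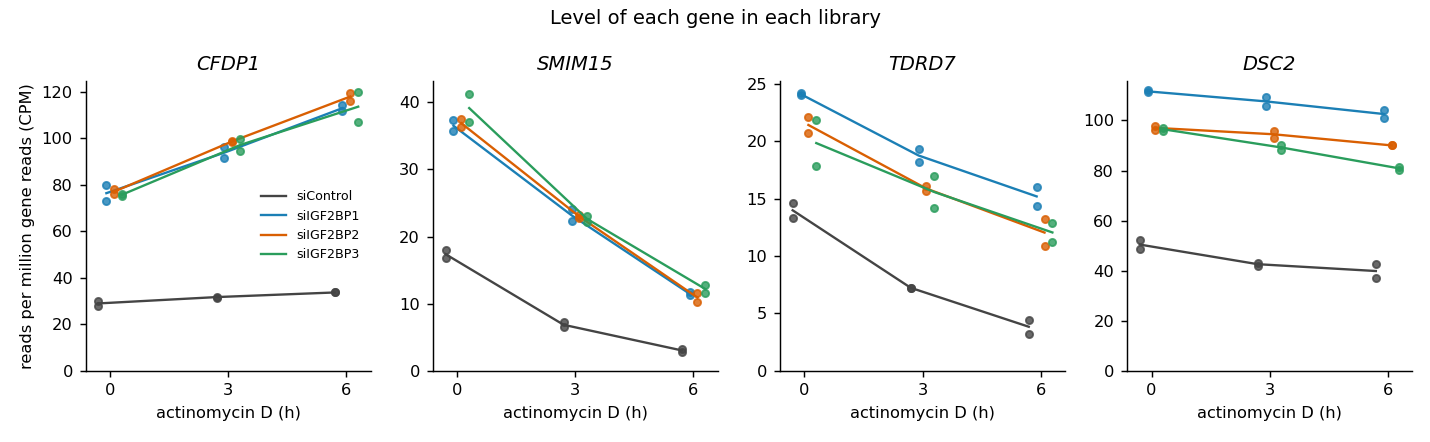
Level of CFDP1, SMIM15, TDRD7 and DSC2 in CPM (y axis, from 0) against hours of actinomycin D (x axis, conditions set slightly apart), with 1 point per library, colours for the 4 conditions and lines through the means of 2 libraries. In each panel the siControl points lie below all 6 knockdown points at each time, and the CFDP1 CPM rises while that of SMIM15 and TDRD7 falls.

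Per exon length (GENCODE exon bases, RPKM scale), the order of the levels in siControl at 0 h was CFDP1 8.69 ± 0.448, SMIM15 6.02 ± 0.284, DSC2 4.03 ± 0.210 and TDRD7 3.35 ± 0.228 (SD, n = 2 each). In siIGF2BP1 at 0 h the same order held, with 22.9 ± 1.45, 12.6 ± 0.410, 8.93 ± 0.0427 and 5.78 ± 0.0275. Neighbours in this order did not overlap between libraries in these 2 groups. The long untranslated region of DSC2 makes its level per length depend on the annotation more than that of the others.

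The share of all genes called higher than siControl at 0 h (edgeR, adjusted p under 0.05) was 9.43% with siIGF2BP1, 6.65% with siIGF2BP2 and 4.93% with siIGF2BP3, and 1.69% with all 3. Without replicate 1 of siControl, the numbers called went from 1239, 874 and 647 genes to 746, 439 and 311, and from 222 to 121 in all 3; without replicate 2 they went to 818, 491, 383 and 141. With ERCC scaling they were 253, 563, 388 and 93. The members were chosen on these contrasts, so their place among those genes describes the choice and is not evidence. The 3 contrasts share the same 2 siControl libraries, and a state common to the 3 knockdowns cannot be told apart from a state particular to the siControl cells. In log2 units, TDRD7 was 0.81, 0.63 and 0.51 above siControl with siIGF2BP1, siIGF2BP2 and siIGF2BP3 (SE 0.11 each).

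To show where the selection fell, the genes were ordered. By the smallest of the 3 differences among 9745 genes with a mean of at least 5 CPM, CFDP1 was 1st at 1.39 log2, SMIM15 2nd at 1.09, DSC2 3rd at 0.94 and TDRD7 10th at 0.51. Below the first 3 the values dropped to 0.67 for VPS4B, a subunit of the ESCRT disassembly machinery, 0.63 for CSGALNACT2, an enzyme of chondroitin sulfate synthesis, and 0.61 for ALDH8A1, an aldehyde dehydrogenase. TDRD7 lay in a denser stretch, after C19orf12 at 0.60, GNPNAT1 at 0.59 and RYK at 0.53 and before SSU72 at 0.50, ST13 at 0.49 and DESI2 at 0.47. 6 genes that are no members were therefore above TDRD7 in this order at 0 h.

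**Figure D2:**
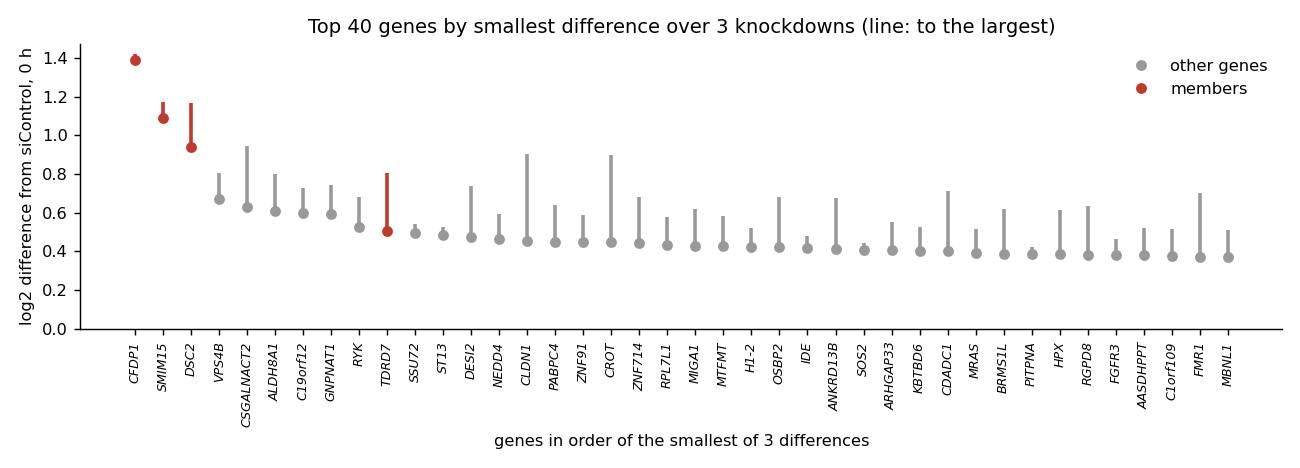
The 40 genes with the largest smallest difference from siControl at 0 h, ordered along the x axis; the y axis is the log2 difference on the TMM scale, points mark the smallest of 3 knockdowns and lines reach to the largest. The members, in red, take places 1, 2, 3 and 10, and the lines of CFDP1 and SMIM15 are shorter than those of DSC2 and TDRD7.

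The contrasts between knockdowns do not involve siControl, so they were tested. At 0 h, DSC2 was lower in siIGF2BP2 than in siIGF2BP1 by a log2 difference of -0.21 (95% interval -0.31 to -0.12, edgeR adjusted p 8.4e-04). DSC2 was likewise lower in siIGF2BP3 than in siIGF2BP1, by -0.23 (-0.32 to -0.13, edgeR adjusted p 7.3e-04), while siIGF2BP3 and siIGF2BP2 differed by -0.01 (-0.11 to 0.08, adjusted p 0.93). Over all genes, 18.7% were called between siIGF2BP2 and siIGF2BP1, 14.3% between siIGF2BP3 and siIGF2BP1 and 9.19% between siIGF2BP3 and siIGF2BP2, so such a call is common. With the ERCC total as the scale both DSC2 differences shrank to -0.10 and -0.11 and lost their calls (adjusted p 0.48 each). On that scale the median of all genes was shifted by 0.12 and 0.11, so DSC2 was lower than the median gene by about as much on both scales.

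TDRD7 followed the same order as DSC2 without passing the test. Its difference at 0 h was -0.30 between siIGF2BP3 and siIGF2BP1 (-0.52 to -0.08, edgeR adjusted p 0.055), -0.18 between siIGF2BP2 and siIGF2BP1 (-0.40 to 0.03, adjusted p 0.27) and -0.12 between siIGF2BP3 and siIGF2BP2 (-0.34 to 0.10, adjusted p 0.61). The first value depended on the siIGF2BP3 libraries, being -0.45 without replicate 2 (adjusted p 0.022) and -0.16 without replicate 1. It also passed in the fit of the 0 h libraries alone (-0.30, adjusted p 0.0083) and without the count filter (-0.31, adjusted p 0.034), and shrank to -0.18 with ERCC scaling (adjusted p 0.37).

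For CFDP1 and SMIM15 no difference between knockdowns passed the test. The CFDP1 differences at 0 h were -0.0032, -0.03 and -0.03 over the 3 pairs, with intervals that all lay between -0.13 and 0.10. Those of SMIM15 were 0.01, 0.09 and 0.08, with intervals between -0.15 and 0.24 (edgeR adjusted p at least 0.55 for all 6). The members were chosen for being high in each knockdown, which favours small differences between them. At 6 h, given without a test, the intervals of CFDP1 lay between -0.14 and 0.12, and DSC2 was -0.23 (-0.32 to -0.13) in siIGF2BP2 and -0.37 (-0.47 to -0.27) in siIGF2BP3 against siIGF2BP1.

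**Figure D3:**
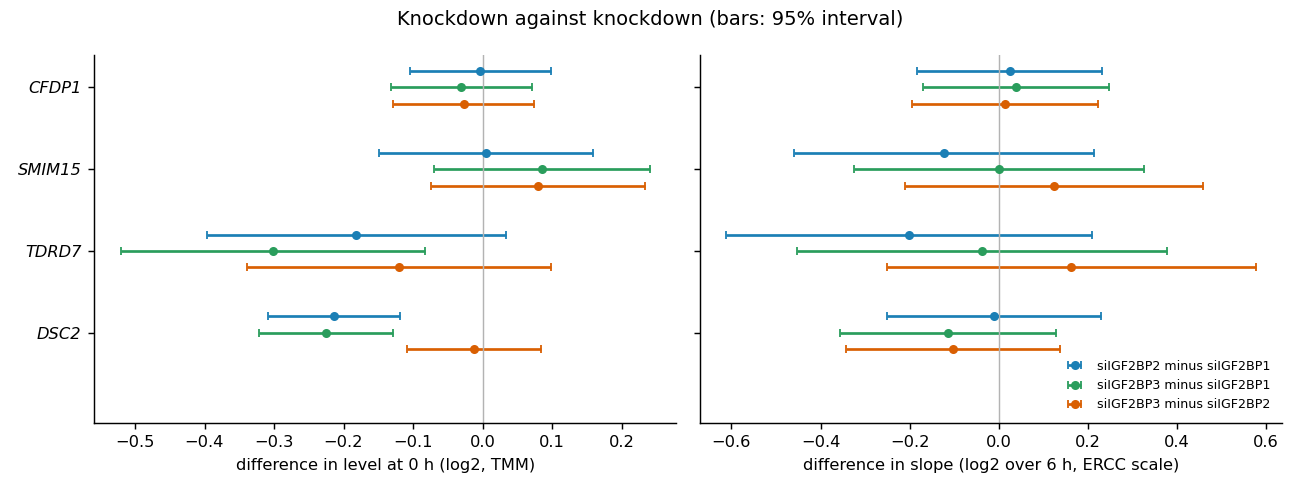
Differences between knockdowns for each gene (rows), in level at 0 h (left, log2, TMM scale) and in slope (right, log2 over 6 h, ERCC scale), with points for estimates, bars for 95% intervals and colours for the 3 pairs. The bars of CFDP1 and SMIM15 cross 0 in both panels, and for level the bars of DSC2 against siIGF2BP1 and of TDRD7 between siIGF2BP3 and siIGF2BP1 lie below 0.

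Loss after actinomycin D was read on the ERCC scale, as a share of each condition's own 0 h mean. SMIM15 was lost fastest. In siControl it stood at 31.3% and 35.0% at 3 h and at 13.5% and 10.5% at 6 h. In the knockdowns it stood at 47.1% to 55.0% at 3 h and at 22.2% to 26.3% at 6 h, above both siControl libraries each time. The share of all genes with such a separation was not counted. The median log2 change over 6 h of all genes was also less steep in the knockdowns (-0.69, -0.71 and -0.65) than in siControl (-0.88). Its slope, the log2 change over 6 h, was -3.06 in siControl (SE 0.12), -2.03 in siIGF2BP1, -2.16 in siIGF2BP2 and -2.03 with siIGF2BP3, all below 0 (edgeR adjusted p at most 1.2e-12).

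TDRD7 had the second steepest loss of the members in each condition. Its siControl libraries held 43.3% and 43.0% at 3 h and 16.3% and 20.9% at 6 h. At 6 h siIGF2BP1 held 51.6% and 45.8%, siIGF2BP2 43.6% and 41.2%, and siIGF2BP3 45.6% and 49.1%. The slopes were -2.43 in siControl (SE 0.15), -1.04 in siIGF2BP1, -1.24 in siIGF2BP2 and -1.08 with siIGF2BP3 (edgeR adjusted p at most 8.9e-07). The first-order half-lifetime of TDRD7 was 2.47 h in siControl and 5.52, 4.36 and 5.40 h in the 3 knockdowns. Taking 1 library per time gave 2.17 to 2.89 h in siControl, and in siIGF2BP3 a wide 3.82 to 9.37 h. Relative to the bulk of mRNA, with TMM scaling, they were 3.94, 16.01, 10.7 and 15.0 h.

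DSC2 was lost in siControl about as fast as the median gene. At 6 h it stood at 52.1% and 55.4% in siControl, 72.6% and 69.5% in siIGF2BP1, 65.5% and 75.4% in siIGF2BP2 and 67.3% and 63.9% with siIGF2BP3. Its slopes were -0.90, -0.49, -0.50 and -0.61 in that order (edgeR adjusted p at most 1.4e-05), beside medians over all genes of -0.88, -0.69, -0.71 and -0.65. Half-lifetimes of DSC2 were 6.31 h in siControl and 11.8, 9.74 and 9.36 h in the knockdowns. Those of SMIM15 were 1.92 h in siControl and 3.18, 2.87 and 2.95 h. With TMM scaling SMIM15 was at 2.68, 5.13, 4.71 and 4.53 h, and DSC2 at 110 h in siControl with no loss to fit in the knockdowns.

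CFDP1 was the member that was lost least. Its siControl libraries held 82.4% and 76.8% at 6 h, a slope of -0.33 (SE 0.073, edgeR adjusted p 3.0e-04) and a half-lifetime of 20.9 h. The knockdown libraries at 6 h ran from 110% to 123%, and no loss could be fitted there. The slopes were 0.19, 0.22 and 0.23 in siIGF2BP1, siIGF2BP2 and siIGF2BP3 (edgeR adjusted p 0.020, 0.0087 and 0.0068). The SE of each was 0.070 to 0.071. All 3 calls were lost without the count filter, where the slopes were the same and the adjusted p ran from 0.073 to 0.15. The siIGF2BP1 call was also lost without replicate 2 of 0 h (0.13) or replicate 1 of 6 h (0.17), and the siIGF2BP2 call without replicate 2 of 6 h (0.12).

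A slope below 0 was called for 80.3% of genes in siControl, 69.1% in siIGF2BP1, 71.3% in siIGF2BP2 and 67.2% with siIGF2BP3, so the falls of SMIM15, TDRD7 and DSC2 are the common case. A slope above 0, as for CFDP1, was called for 2.69% in siIGF2BP1, 2.44% in siIGF2BP2 and 2.91% with siIGF2BP3. The sign of a slope near 0 depends on the scale, and with TMM scaling the CFDP1 slope in siControl was 0.54 and the DSC2 slope in siIGF2BP1 was 0.18.

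**Figure D4:**
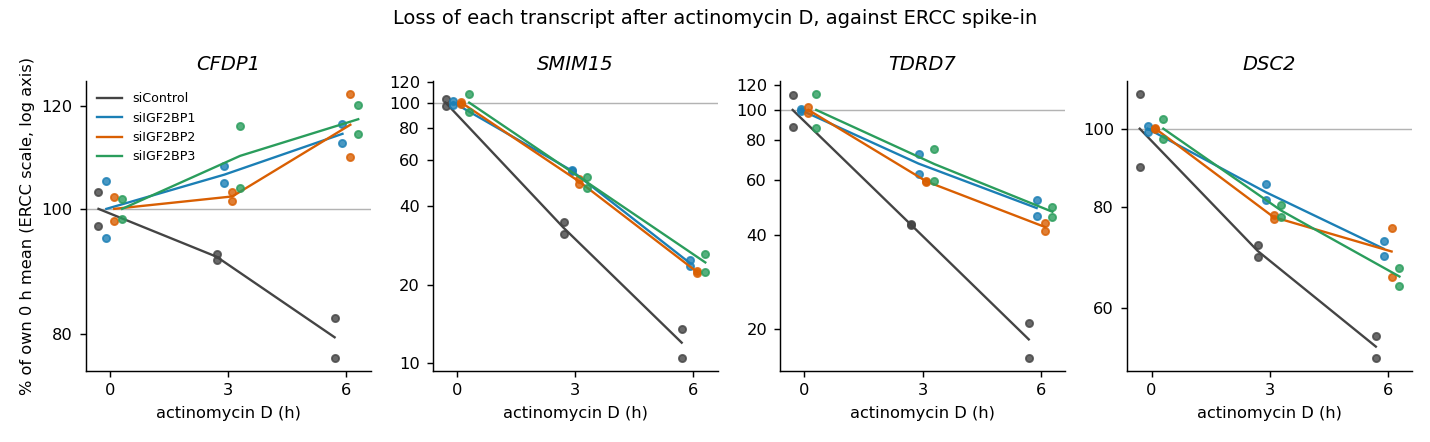
Share of the transcript that remained, as a percentage of each condition's own 0 h mean on the ERCC scale (y axis, log scale, its range set per panel), against hours of actinomycin D (x axis, conditions set slightly apart), with 1 point per library and lines through the means. In siControl (grey) SMIM15 and TDRD7 fall below 21% by 6 h, while the knockdown points of CFDP1 lie above 100% at 3 and 6 h.

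The gap to siControl widened most over time for TDRD7 and SMIM15. In log2 over 6 h, the slope in the knockdowns exceeded that in siControl by 1.03, 0.90 and 1.03 for SMIM15, 1.39, 1.19 and 1.35 for TDRD7, 0.52, 0.54 and 0.56 for CFDP1 and 0.40, 0.39 and 0.29 for DSC2 (siIGF2BP1, siIGF2BP2 and siIGF2BP3). Over all genes the median of this difference was 0.19, 0.17 and 0.22, so the DSC2 value with siIGF2BP3 lay near the median. These are descriptions, because SMIM15 and TDRD7 had been singled out earlier on the same slopes. On the TMM scale, which takes the common shift out, the DSC2 gap went from 0.94 to 1.00 log2 between 0 and 6 h with siIGF2BP3, and the TDRD7 gap from 0.51 to 1.63. The DSC2 gap went from 1.17 to 1.37 with siIGF2BP1 and from 0.95 to 1.14 with siIGF2BP2. The TDRD7 gap went from 0.81 to 1.99 and from 0.63 to 1.61 in the same 2 knockdowns.

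**Figure D5:**
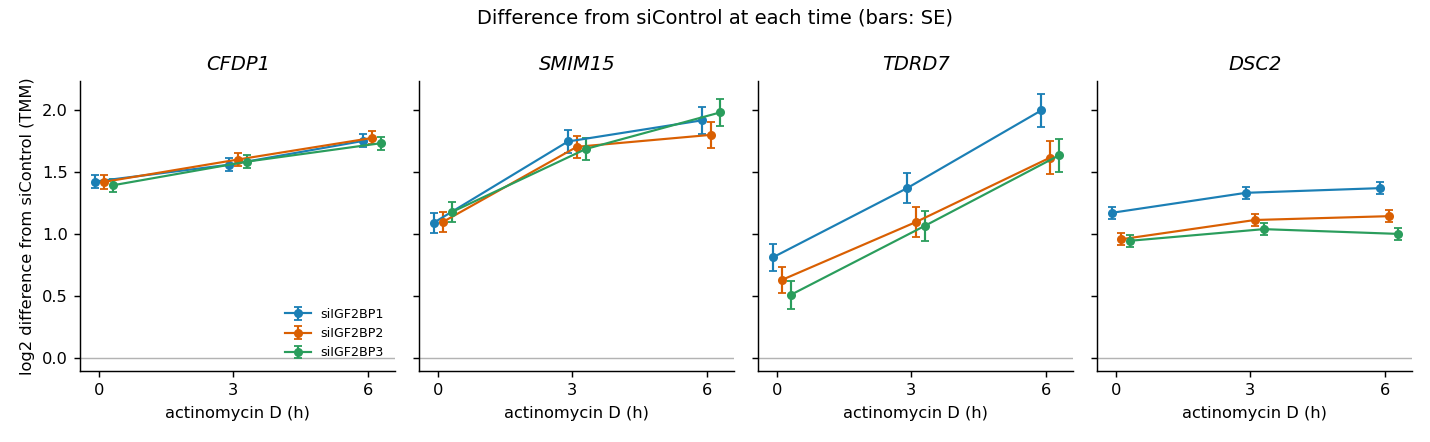
Difference from siControl on the log2 TMM scale (y axis) against hours of actinomycin D (x axis, conditions set slightly apart) for each gene, with points for the 3 knockdowns and bars for SE. All points lie above 0, the TDRD7 lines climb from between 0.51 and 0.81 at 0 h to between 1.61 and 1.99 at 6 h, and those of DSC2 stay between 0.94 and 1.37.

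Between knockdowns, no slope difference passed the test for any member. The estimates for CFDP1 lay between 0.01 and 0.04 with intervals between -0.19 and 0.25, and those of DSC2 between -0.11 and -0.01 with intervals between -0.36 and 0.23. The intervals were wider for SMIM15 (-0.46 to 0.46) and TDRD7 (-0.61 to 0.58). In edgeR these 3 pairs called 0% of all genes, with 256 genes at an unadjusted p under 0.05 between siIGF2BP2 and siIGF2BP1, 272 between siIGF2BP3 and siIGF2BP1 and 246 between siIGF2BP3 and siIGF2BP2. With TMM scaling edgeR called 0, 8 and 1 genes in that order, and DESeq2 called 1, 4 and 0.

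The shape of the decay was tested as the change from 0 to 3 h minus that from 3 to 6 h, which is 0 for a straight line on the log scale. Of the 16 tests (4 members in 4 conditions), none passed in edgeR on the ERCC scale. The estimates ran from -0.28 for TDRD7 in siIGF2BP2 (SE 0.21, edgeR adjusted p 0.40) to 0.31 for SMIM15 in siIGF2BP1 (SE 0.19, edgeR adjusted p 0.44). Over all genes, 12.6% were called in siControl, 11.5% in siIGF2BP1, 18% in siIGF2BP2 and 12.1% with siIGF2BP3. With TMM scaling SMIM15 passed in siIGF2BP1 (0.40, edgeR adjusted p 0.040) and siIGF2BP2 (0.42, edgeR adjusted p 0.020), losing less from 0 to 3 h than from 3 to 6 h relative to other genes. The shares above are for the ERCC scale. The share of all genes called with TMM scaling is not given, so whether these calls stand out cannot be told.

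The profiles of the members over the 12 group means were compared by Pearson's r (log2 CPM, n = 12 group means on a common scale). SMIM15 and TDRD7 gave r = 0.94, CFDP1 and DSC2 0.91, TDRD7 and DSC2 0.81, SMIM15 and DSC2 0.65, CFDP1 and TDRD7 0.55, and CFDP1 and SMIM15 0.36. The genes most like CFDP1 among 9741 were SSU72, an RNA polymerase II phosphatase (r = 0.97), RYK, a Wnt receptor (0.97), and HEATR1, a ribosome biogenesis factor (0.96). Most like SMIM15 were MYCBP2, a ubiquitin ligase (0.98), ATF1, a CREB family transcription factor (0.98), and MTX3, a metaxin (0.97). Most like TDRD7 were MRPL18, a mitochondrial ribosomal protein (0.94), ARHGAP5, a GTPase-activating protein (0.93), and MICALL1, an endocytic recycling factor (0.92). Most like DSC2 were MTFMT, the mitochondrial methionyl-tRNA formyltransferase (0.97), CSGALNACT2 (0.96) and NEDD4, a ubiquitin ligase (0.95). All 12 of these genes were above siControl at 0 h in each knockdown, by 0.16 (MYCBP2) to 0.94 (CSGALNACT2) log2, as the choice by likeness favours.

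Genes beside the members on the chromosome were also examined. Of the 16 nearest tested genes, 0 were called higher in any knockdown (edgeR, adjusted p under 0.05), a count near the 4.93% to 9.43% over all genes. Those called lower numbered 2, 1 and 1 in siIGF2BP1, siIGF2BP2 and siIGF2BP3, beside 6.5%, 5.47% and 4.47% over all genes. With ERCC scaling 1, 1 and 0 of these neighbours were called. TMEM170A, on the side of the CFDP1 start, fell by 0.51 log2 in siIGF2BP2 (SE 0.087, edgeR adjusted p 4.5e-05) and was at -0.10 and -0.07 in the other 2 knockdowns. DSG2, another desmosomal cadherin next to DSC2, fell by 0.13 in siIGF2BP1 (edgeR adjusted p 0.041) and by 0.20 in siIGF2BP3 (adjusted p 0.0017). TTR, the transthyretin gene beyond DSG2, fell by 0.28 in siIGF2BP1 (edgeR adjusted p 2.5e-04). DSC3, the desmocollin gene on the other side, was at 7.68 ± 0.805 CPM in siControl (SD, n = 2) and passed in no knockdown. Genes that overlap the members, among them SMIM15-AS1 and DSCAS on the opposite strand, stayed at or under 0.556 CPM in every library.

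Genes that work with the members were examined from lists. Among 8 tested desmosome genes of 13 listed, DSC2 excluded, 1 rose and 4 fell in siIGF2BP1, 3 rose and 2 fell in siIGF2BP2, and 0 rose and 4 fell in siIGF2BP3. Over all genes, 6.5%, 5.47% and 4.47% were called lower in the 3 knockdowns, beside the 9.43%, 6.65% and 4.93% called higher. DSP, the desmosome plaque protein desmoplakin, fell in all 3 by 0.19, 0.15 and 0.20 log2 (edgeR adjusted p at most 2.4e-04), and PERP, a desmosome membrane protein, fell by 0.15, 0.15 and 0.16 (edgeR adjusted p at most 0.019). PKP3, a plakophilin, rose by 0.23 in siIGF2BP1 (edgeR adjusted p 0.012) and 0.20 in siIGF2BP2 (adjusted p 0.042). In siIGF2BP2, PKP2 rose by 0.17 (edgeR adjusted p 0.022) and PKP4 by 0.13 (adjusted p 0.028). In siIGF2BP1, PKP2 fell by 0.18 (edgeR adjusted p 0.016). The medians of the list were -0.12, -0.08 and -0.10, beside 0.01, 0.02 and 0.00 over all genes. Of these 8 genes 0 were called higher in all 3 knockdowns, beside 1.69% of all genes. PKP3, at 0.10 in siIGF2BP3 (edgeR adjusted p 0.46), missed the call there.

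Of 12 adherens and tight junction genes, 1 rose and 1 fell in siIGF2BP1, 1 rose and 0 fell in siIGF2BP2 and 1 rose and 2 fell in siIGF2BP3. Over all genes, 9.43%, 6.65% and 4.93% were called higher and 6.5%, 5.47% and 4.47% lower. The gene that rose was CLDN1, a tight junction claudin, from 78.1 ± 2.52 CPM (SD, n = 2) by 0.48, 0.90 and 0.45 log2 (edgeR adjusted p at most 2.3e-10). CTNND1, the catenin p120, fell by 0.15 in siIGF2BP1 (edgeR adjusted p 0.0029), and F11R, a junctional adhesion molecule, by 0.20 in siIGF2BP3 (adjusted p 0.019). CTNNA1, another catenin, fell by 0.10 in siIGF2BP3 (edgeR adjusted p 0.036).

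Of 15 genes of the SRCAP complex and its partners, 2 rose and 1 fell in siIGF2BP1, 2 rose and 1 fell in siIGF2BP2 and 2 rose and 0 fell in siIGF2BP3. Over all genes, 9.43%, 6.65% and 4.93% were called higher and 6.5%, 5.47% and 4.47% lower, and counts this small were not tested against those shares. ZNHIT1, a subunit, rose by 0.21 and 0.24 in siIGF2BP1 and siIGF2BP2 (edgeR adjusted p 0.011 and 0.0042), and YEATS4, a histone reader, fell by 0.28 in both (edgeR adjusted p 0.010 and 0.013). ACTL6A, an actin-related subunit, rose by 0.14 and 0.15 in the same knockdowns (edgeR adjusted p 0.037 and 0.023). H2AZ1, a histone gene, rose by 0.13 in siIGF2BP3 (edgeR adjusted p 0.046). Of the 15 genes, 0 were called in all 3 knockdowns, beside 1.69% of all genes called higher in all 3.

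Of the 20 tested interferon-stimulated genes of 30 listed, 0 rose in any knockdown and 3 fell in siIGF2BP2, beside 4.93% to 9.43% called higher and, in siIGF2BP2, 5.47% called lower over all genes. The 3 genes were MX2 (by 0.20, edgeR adjusted p 0.0074), USP18 (by 0.26, adjusted p 0.015) and IFIH1 (by 0.27, adjusted p 0.046). Of 6 tested tudor domain and granule genes of 18 listed, AKAP1 rose by 0.11 in siIGF2BP3 (edgeR adjusted p 0.039) and the others passed in no knockdown. Of 16 tested SMIM genes of 20 listed, which share a name and not a family by descent, SMIM1 rose by 0.42 in siIGF2BP1 (edgeR adjusted p 0.0082), SMIM13 fell by 0.39 in siIGF2BP1 (adjusted p 0.0014) and SMIM24 fell by 0.27 in siIGF2BP2 (adjusted p 0.0024). With the ERCC total as the scale only 2, 2 and 1 of the genes in these 6 lists were called in siIGF2BP1, siIGF2BP2 and siIGF2BP3.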

How the data were processed

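Polyadenylated RNA of the 24 HepG2 libraries was sequenced as 100-base single-end reads. Per the methods and the submitters' processing notes, the authors trimmed reads with Trimmomatic 0.39, aligned them to hg38 with HISAT2 2.1.0 and used HTSeq to count the reads of each gene of GENCODE release 29. The deposited values are raw read counts, not normalized. The strand and overlap settings of the counting are not given in the sources used here. The 5 summary rows (13.6% to 17.1% of each library) and 45 copies of pseudoautosomal genes stayed out. Duplicates cannot be removed from such counts.

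Genes with at least 1 CPM in at least 2 libraries were fitted in edgeR 4.0.16 (R 4.3.3) by the quasi-likelihood test, two-sided, with Benjamini-Hochberg adjustment over 13136 genes and a threshold of 0.05. Levels came from 12 group means with TMM scaling, and slopes from 8 terms (an intercept and a slope on time per condition) scaled by the ERCC total. The decay rate was the mean of the rates from 3 h and 6 h, each from the means of both libraries, and the half-lifetime is ln2 over that rate. The authors' conversion to attomole was replaced by the ERCC total. As alternatives, the fits were repeated with DESeq2 1.42.0, with the other scalings (TMM, ERCC total, library size), with no count filter, the 0 h libraries alone, the change from 0 to 6 h, a replicate block and leaving out each library. The tests of level and slope were also run on simulated counts with planted changes of 1 log2 between siIGF2BP1 and siControl. That run does not cover smaller differences, pairs of knockdowns or the decay shape. Positions, exon lengths and untranslated regions are from GENCODE release 44, and promoters from RefSeq. Replicate numbers were not used as pairs: the correlation of deviations of same-numbered libraries lay between -0.04 and 0.09.

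The 4 members and the gene lists were chosen with earlier results of these data known. Named beside the members are the siRNA targets, the 3 genes most like each member, the 2 nearest tested genes on each side, up to 3 genes called in each direction per list and the 3 genes before and after each member in the order of differences.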

Additional observations from a re-analysis of the deposited data

Results flagged for a closer look

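The level of DSC2 at 0 h differed between knockdowns by a test of the difference itself. It was -0.21 log2 in siIGF2BP2 and -0.23 log2 in siIGF2BP3 against siIGF2BP1 in edgeR with TMM scaling. Over all genes 18.7% and 14.3% were called in these 2 contrasts, so such a call is common. Both libraries of siIGF2BP1 were above both libraries of each of the others, a separation whose share over all genes was not counted. With ERCC scaling the differences were -0.10 and -0.11 and neither was called (edgeR adjusted p 0.48 each).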

How the results depend on the processing

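The differences of the 4 members from siControl at 0 h kept their direction under each alternative fitted, the DSC2 mean being 1.06 with ERCC scaling and 0.963 to 1.08 without 1 library. Genes called higher than siControl numbered 253, 563 and 388 in siIGF2BP1, siIGF2BP2 and siIGF2BP3 with ERCC scaling, 93 in all 3, and 567 in siIGF2BP2 without the count filter. Without 1 library they numbered 746 to 1200, 430 to 858 and 311 to 627, and 121 to 189 in all 3. Without siControl replicate 1 they were 746, 439, 311 and 121, and without siControl replicate 2 they were 818, 491, 383 and 141. Of the knockdown libraries, leaving out replicate 2 of siIGF2BP1 gave 756, either replicate of siIGF2BP2 430 and 484, and either replicate of siIGF2BP3 391 and 373. Between knockdowns DSC2 gave -0.10 and -0.11 with ERCC scaling, and TDRD7 (siIGF2BP3 against siIGF2BP1) -0.31 without the filter, -0.30 with the 0 h libraries alone and -0.45 to -0.16 without 1 library.

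With TMM scaling the slopes of DSC2 were -0.020 in siControl, 0.18 in siIGF2BP1, 0.17 in siIGF2BP2 and 0.037 with siIGF2BP3, and that of CFDP1 in siControl was 0.54. With library-size scaling CFDP1 in siControl was at 0.22 and DSC2 in siIGF2BP2 at -0.11. By construction TMM scaling holds the bulk of genes constant and library-size scaling the total of gene reads, so slopes are relative to these. The CFDP1 slopes in the knockdowns lost their calls without the filter (0.19, 0.22 and 0.23), and ran from 0.13 to 0.26 in siIGF2BP1 and 0.12 to 0.26 in siIGF2BP2 without 1 library. The cause of the loss without the filter was not tested. The SMIM15 decay shape passed with TMM scaling (0.40 and 0.42 in siIGF2BP1 and siIGF2BP2) and with library-size scaling in siIGF2BP2 (0.40). The shares of all genes called for shape with these scalings are not given.

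With TMM scaling half-lifetimes in siControl, siIGF2BP1, siIGF2BP2 and siIGF2BP3 were 2.68, 5.13, 4.71 and 4.53 h for SMIM15 and 3.94, 16.01, 10.7 and 15.0 h for TDRD7. DSC2 in siControl was at 110 h, and DSC2 in the knockdowns and CFDP1 gave no loss to fit. From 6 h alone SMIM15 was at 2.94 h in siIGF2BP1 and 2.78 h in siIGF2BP2, TDRD7 at 4.85 h and DSC2 at 11.9 h in siIGF2BP2. Without 1 siControl library CFDP1 ran from 17.1 to 27.2 h, TDRD7 from 2.26 to 2.77 h and DSC2 from 5.15 to 8.39 h. Of the genes in the 6 lists, 2, 2 and 1 were called with ERCC scaling.

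No source says that a replicate number marks a shared plate or day, and libraries of the same number in 1 condition deviated together little (r -0.02 to 0.08), so no pairing was assumed. The highest of these were the siIGF2BP3 pairs, at 0.063 to 0.082, and pairs of the other conditions reached 0.024. The fit with the replicate block called 1291, 932 and 692 genes higher in siIGF2BP1, siIGF2BP2 and siIGF2BP3, gave 1.41, 1.12, 0.65 and 1.02 log2 for CFDP1, SMIM15, TDRD7 and DSC2 and changed no call of a member. With 2 libraries per group the spread rests on all 24 libraries together, and only TDRD7 and SMIM15 at 6 h of siControl had as few as 148 to 238 reads. The 2 libraries of a group did not differ equally in all groups. Chi-square per degree of freedom between them ran from 3.24 (siControl, 3 h) to 8.49 (siControl, 6 h), a measure that also grows with the number of reads. The shared spread does not follow such differences between groups.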
